A study of Arabidopsis thaliana with 6 samples.

Results

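Most of the genes described here encode nucleolar proteins that cut, modify and fold the ribosomal RNA precursor and assemble it into ribosomal subunits in Arabidopsis thaliana. All were chosen by name from a list of 51 genes of pre-rRNA processing, small nucleolar ribonucleoproteins (snoRNPs) and ribosome assembly. A gene entered the analysis through the probe sets that the array annotation assigns to it alone. Of the 51 genes, 34 had such a probe set, and the array as a whole had 13513 probe sets assigned to 1 gene. All 34 passed the filter on dim probe sets, a log2 level of 4 or more on 3 or more of 6 arrays, and so were tested. Of the others, 16 were not listed in the annotation used here, and AT5G27120 shared its only probe set with a second gene. The 16 were TOZ, SWA1, PWP2, EDA7, EMB2762, FIB1, FIB2, NOP56, EDA25, NUC-L1, OLI2, NSN1, AtNug2, MEE49, PPAN and PUM24. Both fibrillarins and nucleolin, the most familiar markers of the nucleolus, were therefore not analysed here.

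Transcripts were measured on Affymetrix arrays in root meristems cut out by microdissection from untreated seedlings at 7 days after sowing. The wild-type group (WT, 3 arrays) was compared with plants that overexpress the microRNA miR396 from the 35S promoter (35S:miR396, 3 arrays). The 35S promoter is viral and active in most plant tissues, so the microRNA is not restricted to the meristem. The labels name neither the plant accession nor the number of transgenic lines, and they call the 3 samples of a group biological replicates without saying how their plants were grown apart, so p-values reflect only how far these samples spread, which may be technical. Precision is set by the small number of arrays.

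Ribosomes begin in the nucleolus, where RNA polymerase I makes a long precursor that holds the 18S and 25S rRNAs. A large assembly known as the small-subunit processome forms on it while it is still being made, guided by the U3 snoRNP, and other factors mature the large subunit. Box C/D snoRNPs guide methylation of the rRNA, DEAD-box helicases remodel its folding, and NOC proteins accompany the precursor particles out of the nucleolus, as known from yeast. Dividing cells of the root meristem need a steady supply of new ribosomes, and plants with defects in these factors often show arrested embryo sacs, small meristems or pointed leaves.

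Values are the authors' log2 GCRMA values, so 1 unit is a 2-fold difference. The arrays correlated at 0.988 to 0.993 within WT, at 0.978 to 0.990 within 35S:miR396 and at 0.944 to 0.976 between the groups, a correlation over the 11364 probe sets tested, whose values are not replicates of each other. Of 10 genes on a list of root meristem markers, 2 had a named probe set, and both were higher in 35S:miR396. BBM, a regulator of the root stem cell niche, had log2 values of 5.56, 5.67 and 5.52 in WT and 6.97, 7.37 and 6.92 in 35S:miR396. UPB1 had 5.60, 5.46 and 4.78 in WT and 6.20, 6.54 and 6.34 in 35S:miR396. UPB1 is on that list but is a transcription factor of the zone where cells leave the meristem. Neither rise is read as a sign of more meristem, which was not tested. Of 10 markers of differentiated root cells, 2 had a named probe set, EXPA7 and AT4G26010, and both lay between 2.25 and 2.27 in every array, near the lowest value of the table. No root cap marker (0 of 3) and no green shoot marker (0 of 5) was listed in the annotation used here, and neither was any of 7 GRF genes, the known targets of miR396, so the genotype rests on the labels. A difference in the share of dividing cells and a difference in RNA per cell cannot be told apart in these samples, and the part of cell composition in the results below was not tested.

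A minority of the genes passed the test as higher in 35S:miR396, although most had a value above 0. Of the 34 tested genes, 7 rose, 1 fell and 26 did not pass the threshold of 0.05 on the adjusted p (limma, two-sided, Benjamini-Hochberg over 11364 probe sets). The genes that rose were PRH75, DIM1A, AT5G20600, PCN, IMP4, DIM1B and AT1G52930, and AT4G26600 fell. Over all tested probe sets 25% were called, 12.7% higher and 12.3% lower. Of the 34 genes 23.5% were called, a share close to that background, with 20.6% higher and 2.94% lower. The background was not matched for level, and the 34 genes were brighter than most probe sets. Their median log2 level was 8.38 against 6.60, and 78.6% of all tested probe sets lay below it. Their median SE was smaller (0.096 against 0.113). The median log2 fold change of the 34 genes was 0.10, against -0.01 over all tested probe sets, and 22 genes (64.7%) had a value above 0, against 47.9% of all tested probe sets. The 3 values of each group did not overlap at 10 of the 34 genes in the higher direction and at 2 of the 34 in the lower. Over all tested probe sets the shares without overlap were 21.5% and 24.3% in these directions. The count of 7 fell to 3 without replicate 1 of WT and to 2 without replicate 2 of WT, and it was 3 when dim probe sets were kept in the test. In these fits, in that order, 11.4%, 9.26% and 4.14% of all probe sets were called in either direction. The shares of the 34 genes called were 8.82%, 5.88% and 8.82%. The 2 genes that passed under each of the 14 alternative fits were PRH75 and IMP4.

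**Figure D1:**
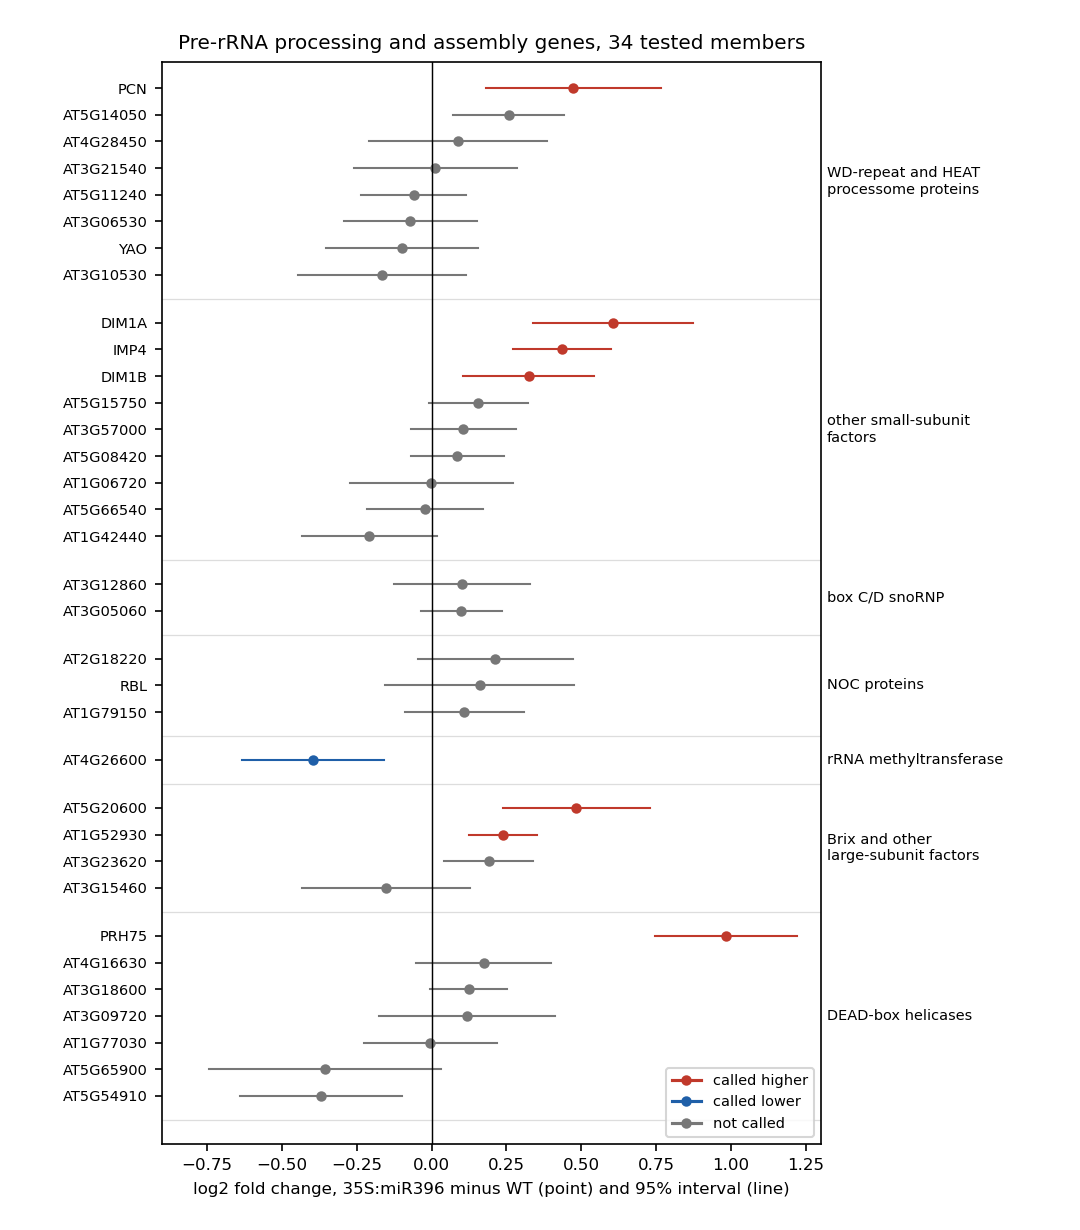
The log2 fold change (35S:miR396 minus WT, horizontal axis) of each of the 34 tested genes is drawn as a point with its 95% interval from limma, ordered within role groups. PRH75 lies farthest to the right at 0.98, and 33 of the 34 intervals lie within 1 log2 unit of 0.

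DEAD-box RNA helicases use ATP to unwind RNA, and all 7 on the list were tested. PRH75, a nucleolar helicase found in plants, had log2 values of 10.80, 10.92 and 10.70 in WT and 11.97, 11.82 and 11.59 in 35S:miR396. The groups were well apart, with the lowest 35S:miR396 array above the highest WT array by several times the spread within WT. PRH75 rose 1.98-fold, by 0.98 ± 0.10 (log2, SE; adjusted p = 0.00193 by limma), the largest change of the 34 genes. The other 6 helicases did not pass the test. AT4G16630 stood at 0.17 ± 0.10 (SE) and AT5G54910 at -0.37 ± 0.11 (SE, adjusted p = 0.0548). Nearly as low was AT5G65900, at -0.36 ± 0.16 (SE, adjusted p = 0.149 by limma), with groups that overlapped. Among the alternative fits AT5G65900 passed only with array weights (adjusted p = 0.0474). The values of AT5G54910 were 7.62, 7.50 and 7.53 in WT and 7.05, 7.42 and 7.08 in 35S:miR396, so the groups did not overlap, and replicate 2 of 35S:miR396 lay nearest to WT. Without that array its value was -0.49 and passed (adjusted p = 0.00787). AT5G54910 also passed with the filter at a log2 level of 6 (adjusted p = 0.0457) and with array weights (-0.42, adjusted p = 0.00658). It passed in no other alternative fit. The median of the 7 helicases was 0.12, and their values ran from -0.37 to 0.98, so the group did not move as one.

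The small-subunit factors outside the WD-repeat proteins held 3 of the 7 genes that rose. Of 9 tested, 3 rose, none fell and 6 did not pass (median 0.11). Over all tested probe sets 12.7% were called higher and 12.3% lower. DIM1A, the dimethylase that marks 18S rRNA in the nucleus and that acts in root epidermis patterning in Arabidopsis, had log2 values of 7.78, 7.95 and 8.17 in WT and 8.68, 8.57 and 8.47 in 35S:miR396. It rose 1.52-fold, by 0.61 ± 0.11 (SE; adjusted p = 0.0124), and the WT arrays spread over more than the 35S:miR396 arrays. Its call was lost without replicate 2 of WT (0.60, adjusted p = 0.0529) and with no filter on dim probe sets.

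IMP4, which in yeast is a protein of the U3 snoRNP needed for the early cuts that release 18S rRNA, had 8.80, 8.74 and 8.87 in WT and 9.32, 9.18 and 9.21 in 35S:miR396. The arrays of each group lay close together and the groups were apart. IMP4 rose 1.35-fold, by 0.44 ± 0.07 (SE; adjusted p = 0.00759). DIM1B had 5.93, 6.09 and 5.93 in WT and 6.25, 6.29 and 6.38 in 35S:miR396, a rise of 0.32 ± 0.09 (SE; adjusted p = 0.0425). In Arabidopsis DIM1B is known as the mitochondrial relative of DIM1A, so it is a gene of the list whose known place of action is not the nucleolus. Leaving out any 1 of the 6 arrays ended the call of DIM1B, with log2 fold changes of 0.29 to 0.38 and adjusted p-values up to 0.122. The call was also lost after a further quantile normalization (0.30, adjusted p = 0.063), after median centring (0.32, adjusted p = 0.0524) and when dim probe sets were kept in the test (adjusted p = 0.0735). The other 6 genes of this group, AT5G15750, AT3G57000, AT5G08420, AT1G06720, AT5G66540 and AT1G42440, lay between 0.16 ± 0.07 (SE, AT5G15750) and -0.21 ± 0.10 (SE, AT1G42440).

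**Figure D2:**
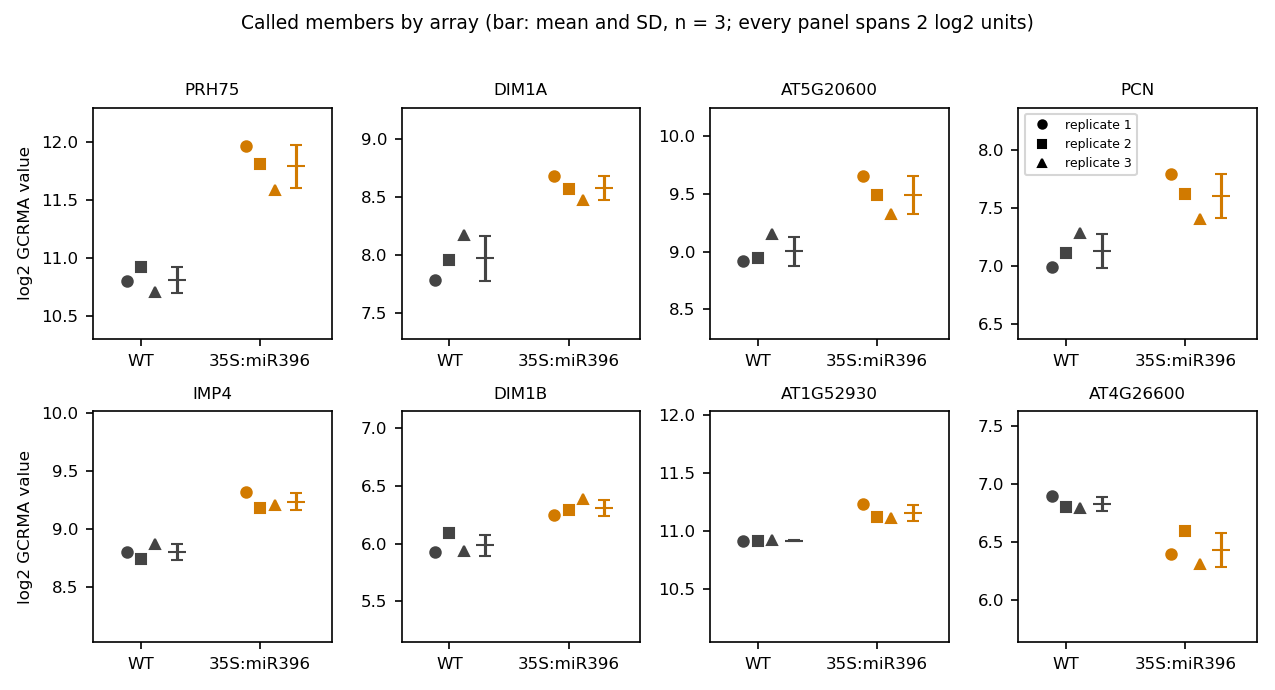
Log2 GCRMA values (vertical axis) of the 8 called genes are shown for each array, with circles, squares and triangles for replicates 1, 2 and 3 and bars for the mean and SD of 3 arrays; every panel spans 2 log2 units. In each panel the WT and 35S:miR396 values do not overlap, and AT4G26600 is the panel in which 35S:miR396 is lower.

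WD-repeat and HEAT-repeat proteins form the scaffold of the small-subunit processome, and 8 of 12 on the list were tested. Of the 8, 1 rose, none fell and 7 did not pass, where 12.7% of all tested probe sets were called higher and 12.3% lower. The median of the 8 genes was -0.02. PCN (POPCORN), a WD-repeat protein required for embryo development, had log2 values of 6.99, 7.12 and 7.29 in WT and 7.79, 7.62 and 7.41 in 35S:miR396. The gap between the highest WT and the lowest 35S:miR396 array was smaller than the spread within either group. PCN rose 1.39-fold, by 0.47 ± 0.12 (SE; adjusted p = 0.0334), and the call was lost without replicate 1 (0.40) or 2 (0.47) of WT, without replicate 1 of 35S:miR396 (0.38) and with no filter (adjusted p = 0.125). AT5G14050 had 8.73, 8.79 and 8.74 in WT and 9.07, 9.10 and 8.87 in 35S:miR396, and at 0.26 ± 0.08 (SE, adjusted p = 0.051) it missed the threshold although the groups did not overlap. It passed without replicate 3 of 35S:miR396 (0.33, adjusted p = 0.0397). AT5G14050 also passed with the filter at a log2 level of 6 (adjusted p = 0.0471) and with a robust variance prior (adjusted p = 0.0488). It passed in no other alternative fit. AT3G10530 was the lowest of the group, at -0.16 ± 0.12 (SE). YAO (YAOZHE), a nucleolar WD-repeat protein needed for embryo sac and embryo development, stood at -0.10 ± 0.11 (SE), with a 95% interval from -0.35 to 0.16. Of the 8 genes, 4 had values above 0 and 4 below, so the scaffold proteins showed no common direction.

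The factors of the large subunit with a Brix domain or a related role were represented by 4 tested genes of 7. Of these 4, 2 rose and 2 did not pass (median 0.22), where 12.7% of all tested probe sets were called higher. AT5G20600 had log2 values of 8.92, 8.94 and 9.15 in WT and 9.65, 9.49 and 9.32 in 35S:miR396. The groups did not overlap, and the highest WT array was replicate 3. AT5G20600 rose 1.40-fold, by 0.48 ± 0.10 (SE; adjusted p = 0.0183). It no longer passed when replicate 1 (0.44) or 2 (0.45) of WT was left out, or with no filter on dim probe sets. AT3G23620 stood at 0.19 ± 0.06 (SE, adjusted p = 0.0644), with groups that did not overlap. Among the alternative fits it passed only after a further quantile normalization (0.21, adjusted p = 0.0419) and with array weights (0.18, adjusted p = 0.0301).

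Some genes of the list are paralogs or share a protein family, and 3 of 7 such pairs had both genes tested. AT1G52930 and AT3G15460 are 2 genes of the Brix family. AT1G52930 had 10.92, 10.91 and 10.92 in WT and 11.23, 11.12 and 11.11 in 35S:miR396, a rise of 0.24 ± 0.05 (SE; adjusted p = 0.0152). The WT arrays were nearly identical (SD 0.0059, against 0.067 in 35S:miR396) and the change was 1.18-fold, and the call was lost without replicate 1 or 2 of WT (0.24 in both cases) and with no trend in the variance prior (adjusted p = 0.0537). AT3G15460 had 8.40, 8.55 and 8.74 in WT and 8.22, 8.55 and 8.47 in 35S:miR396, and its groups overlapped (-0.15 ± 0.12, SE; adjusted p = 0.373). The log2 difference between both genes, taken within each array, was 2.51, 2.36 and 2.18 in WT and 3.01, 2.58 and 2.64 in 35S:miR396. It was larger in every 35S:miR396 array than in any WT array, by 0.39 on average, with an exact permutation p of 0.1 (two-sided), the smallest that 3 against 3 arrays allow, and 0.3 after adjustment over the 3 pairs. For DIM1A and DIM1B the change of the difference was 0.28 (exact permutation p = 0.2, adjusted 0.3), and the values overlapped between the groups. For AT2G18220 and RBL it was 0.05 (exact permutation p = 0.6). The exact permutation test of 3 against 3 arrays cannot reach a p under 0.05, no other test of the pairs was run, and probes of close paralogs can bind each other's transcripts.

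**Figure D3:**
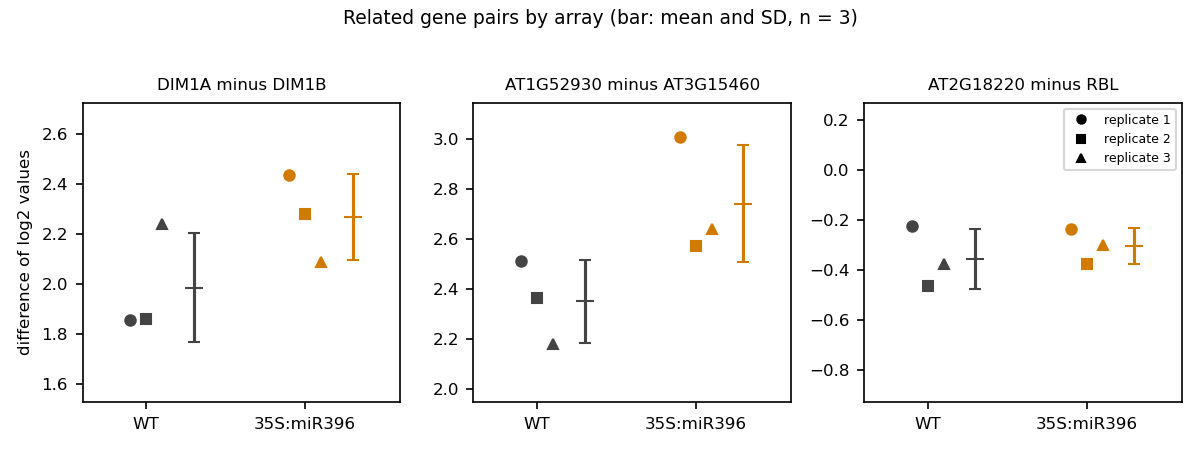
The difference of log2 values between the 2 genes of each pair (vertical axis) is plotted for each array, with the mean and SD of 3 arrays beside it. Values of AT1G52930 minus AT3G15460 are higher in the 3 35S:miR396 arrays than in the 3 WT arrays, while the other pairs overlap.

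The NOC proteins and the box C/D snoRNP proteins had small positive values that did not pass the test. AT2G18220 had log2 values of 7.68, 7.65 and 7.87 in WT and 7.96, 8.12 and 7.77 in 35S:miR396 (0.21 ± 0.11, SE). RBL (REBELOTE), first known from the termination of floral meristems, had 7.91, 8.12 and 8.25 in WT and 8.19, 8.49 and 8.07 in 35S:miR396 (0.16 ± 0.13, SE). In both genes the groups overlapped and replicate 2 was the highest 35S:miR396 array. AT1G79150, the last of the 3 tested NOC genes, had 2 probe sets that differed in sign, 0.11 ± 0.08 (SE) at the brighter and -0.09 ± 0.13 (SE) at the other, and neither passed.

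Only 2 of 6 box C/D proteins were tested. AT3G05060 had 11.26, 11.07 and 11.22 in WT and 11.30, 11.31 and 11.24 in 35S:miR396 (0.10 ± 0.06, SE; adjusted p = 0.235). AT3G12860 had 8.67, 8.63 and 8.94 in WT and 8.79, 8.93 and 8.83 in 35S:miR396 (0.10 ± 0.10, SE; adjusted p = 0.459). The groups overlapped in both, and the 95% intervals, from -0.04 to 0.24 and from -0.13 to 0.33, leave out a change of 1.5-fold. The probe set that AT5G27120 shares with AT5G27140 stood at 0.15 ± 0.07 (SE, adjusted p = 0.181).

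AT4G26600, the only tested gene of the group of nucleolin, rRNA methyltransferases and GTPases, was the gene that fell. Its log2 values were 6.90, 6.80 and 6.79 in WT and 6.39, 6.59 and 6.31 in 35S:miR396. All 3 arrays of 35S:miR396 lay below WT, with replicate 2 the nearest. It fell by 0.40 on the log2 scale (SE 0.10; adjusted p = 0.0307). Only the fit that left out replicate 2 of 35S:miR396 kept this call; the other 5 fits with 1 array left out lost it, at values from -0.42 without replicate 3 of WT to -0.33 without replicate 3 of 35S:miR396. Testing every probe set, dim ones included, ended it too.

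Of the 26 genes that did not pass, 15 had positive and 11 negative values, and at an unadjusted p under 0.05 2 of them were higher and 1 was lower. Their 95% intervals ran from -0.74 to 0.48 at the extremes. For 24 of the 26 the interval left out a change of 1.5-fold in either direction, and for all 26 a change of 2-fold. These intervals are not adjusted for the number of genes.

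Within each group, most of the genes were highest in the same array. Measured against the WT mean of each gene, the median of the 34 genes was -0.06, -0.02 and 0.08 in the WT arrays and 0.08, 0.19 and 0.05 in the 35S:miR396 arrays, each in the order of the replicate numbers. WT replicate 3 thus matched replicate 1 of 35S:miR396 in this median, and replicate 2 of 35S:miR396 was the highest array. The same medians over all tested probe sets lay between -0.02 and 0.01. WT replicate 3 was the highest WT array at 24 of the 34 genes (70.6%), against 39.4% of all tested probe sets. Replicate 2 of 35S:miR396 was the highest of its group at 24 genes (70.6%), against 37.8% of all tested probe sets. These shares were not tested, and the 34 genes are measured on the same 6 arrays and are not independent of each other.

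The genes that rose and those that did not pass differed in which 35S:miR396 array was highest. Of the 7 that rose, replicate 1 was the highest 35S:miR396 array at 6 and replicate 3 at DIM1B. Of the 26 that did not pass, replicate 2 was the highest at 23, where it was the highest at 37.7% of all uncalled probe sets. Among all probe sets called higher, replicate 1 was the highest at 66.6% and replicate 2 at 14%. Which array is highest enters the test of each gene, so the split between called and uncalled genes is a description.

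**Figure D4:**
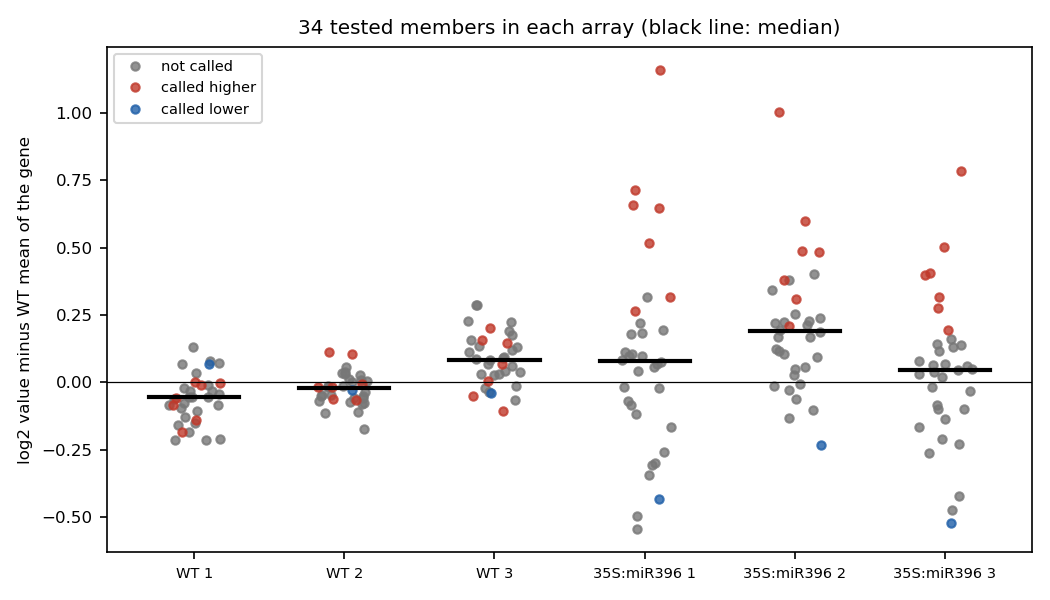
For each array, the log2 value of each of the 34 tested genes minus the WT mean of that gene is plotted as a point, with a black line at the median. The medians run from -0.06 in WT replicate 1 to 0.19 in replicate 2 of 35S:miR396, and the genes spread more widely in 35S:miR396 than in WT, where the mean of the same arrays is the zero line.

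Other genes of ribosome biogenesis were taken from 5 further lists of 44 genes, of which 18 were tested. Of these 18, 6 rose, none fell and 12 did not pass (median 0.09), where 12.7% of all tested probe sets were higher and 12.3% lower. The 6 were 3 of 4 large-subunit assembly genes, 1 of 2 box H/ACA snoRNP genes and 2 of 6 exosome and ribonuclease genes. The largest rises were at AT3G46210 (0.71 ± 0.08, SE) and AT3G07750 (0.63 ± 0.12, SE), both of the exosome list, whose complex trims the 3' ends of rRNA precursors. Of the large-subunit assembly list, AT5G14520 rose by 0.58 ± 0.07 (SE), AT2G40360 by 0.37 ± 0.09 and AT5G15550 by 0.36 ± 0.09. The box H/ACA gene AT3G03920, of the particles that guide pseudouridine formation, rose by 0.35 ± 0.05 (SE). None of the 3 tested genes of RNA polymerase I and none of the 3 of small-subunit processing passed, with values from 0.02 to 0.09 and from 0.02 to 0.17. The count of 6 fell to 3 without replicate 2 of WT, and to 3 when dim probe sets were kept in the test, fits in which the share of all probe sets called fell from 25% to 9.26% and 4.14%. It was 4 without replicate 1 of WT and without replicate 1 or 3 of 35S:miR396, where 11.4%, 14.1% and 12% of all probe sets were called. AT3G46210, AT5G14520 and AT3G03920 passed in each of the 6 fits with 1 array left out. AT2G40360 lost the call without any WT array (0.39, 0.38 and 0.34 for replicates 1, 2 and 3) or replicate 1 of 35S:miR396 (0.30), AT5G15550 without replicate 1 (0.28) or 2 (0.36) of WT or replicate 1 (0.36) or 3 (0.37) of 35S:miR396, and AT3G07750 without replicate 2 of WT (0.62) or replicate 3 of 35S:miR396 (0.58).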

How the data were processed

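Per the submitters' processing notes the authors made the deposited log2 values per probe set with GCRMA, a method that models background from the probe sequence, equalises the arrays and combines the probes of a set; no version is stated in the labels. A shift in the RNA content of cells would therefore not show, and dim probe sets are compressed toward a lower limit. Groups and replicate numbers came from the sample titles. Of 22810 probe sets, 64 controls were left out, and 11364 with a log2 value of at least 4 in at least 3 arrays were tested with limma 3.58.1 in R 4.3.3 (lmFit, eBayes with a trend, no replicate block; two-sided, Benjamini-Hochberg), a fit tested on simulated data. SE is limma's moderated standard error and SD is over 3 arrays.

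Probe sets with 1 gene in the platform annotation were used, the brightest where a gene had several. All 51 genes matched a gene table of assembly TAIR10.1. Role groups came from general knowledge of plant and yeast homologues, and genes known only by a locus code get no role of their own. Values per array are given for called genes, box C/D genes and pairs, and the highest and lowest gene is named in other groups. AT5G54910, AT5G65900, AT5G14050, AT3G23620 and YAO were singled out further after their values were seen. The genes and lists were chosen with earlier results of these data known. Alternatives changed the filter, variance prior, normalization, array weights, replicate block, choice of probe set and arrays. A planned count of promoter motifs was not run.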

Additional observations from a re-analysis of the deposited data

Results flagged for a closer look

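The array carries a control probe set for 25S rRNA, which lies outside the comparison of genes and was higher in 35S:miR396 than in the WT arrays. Its log2 value was 11.48, 11.36 and 11.39 in WT and 12.33, 12.15 and 12.05 in 35S:miR396, a mean difference of 0.76 with no overlap. The control for 5S rRNA was 4.55, 4.57 and 3.89 in WT and 3.72, 4.62 and 3.43 in 35S:miR396, and its groups overlapped. Neither was tested, and how the labelling, which starts from the 3' end of transcripts, takes up rRNA was not measured here.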

How the results depend on the processing

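With no filter on dim probe sets, 941 probe sets were called in place of 2838, 3 genes of the list were higher and 0 lower, and 3 related genes were higher. With the filter at a log2 value of 6, 2190 probe sets (30%) were called, and 8 genes of the list were higher and 2 lower (30.3% called). With array weights 4749 probe sets (41.8%) were called, and 9 genes of the list were higher and 4 lower (38.2% called). Leaving out 1 array at a time gave 2 to 7 genes higher, 0 to 2 lower, a median from 0.067 to 0.17, 3 to 6 related genes higher and 1052 to 3813 probe sets called; the highest of these counts of calls came without replicate 2 of 35S:miR396. No related gene fell under these settings. Uncalled genes near 0 changed sign when 1 array was left out. YAO ran from -0.19 to 0.0046, AT4G28450 from -0.019 to 0.23, AT3G21540 from -0.11 to 0.078, AT5G66540 from -0.074 to 0.026, AT1G06720 from -0.12 to 0.10 and AT1G77030 from -0.023 to 0.031. AT3G21540 was also -0.079 and AT1G77030 0.028 with array weights, and AT1G06720 was 0.0022 with a further quantile normalization. The cause was not tested. The replicate block gave 5 genes higher, since PCN (adjusted p = 0.0576) and DIM1B (0.0684) lost the call, with 2844 probe sets called; deviations of arrays with the same number correlated at 0.40, -0.092 and 0.14, so the numbers are not shown to pair the arrays. Over up to 14 alternatives for each of 40 genes (AT1G77030 did not pass the filter at 6), 490 of 559 values kept direction and side of the threshold, and no called gene reversed. Fits that left out an array kept the probe sets of the full filter.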
